A study of Mus musculus with 16 samples.

Results

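The 8 genes described here are Cd79a, Cd79b, Ms4a1, Ighm, Ighg1, Igkc, Igkv6-15 and Jchain, which mark B cells and the antibodies they make. They were chosen by name, with their levels in these libraries already known, so their differences between groups are given as descriptions without tests. They are 8 of 56989 features in the series, and each name had 1 feature in each cell type. RNA was sequenced from mouse microglia and mouse astrocytes in 16 libraries, with 2 libraries in each of 4 groups per cell type. AD CKO mice carried an Alzheimer's disease (AD) model together with a conditional knockout of Rack1, AD WT mice carried the AD model with Rack1 intact, CKO mice carried the conditional knockout alone, and WT mice carried neither. The series describes the knockout as one made in microglia, so the astrocytes of CKO and AD CKO mice came from animals whose microglia were targeted. Which AD model and which Cre driver were used is not given in the labels, nor are the age of the mice, the isolation method or the number of animals behind each pair of libraries. All standard errors and p values below therefore measure the spread between these libraries, which may be technical.

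An antibody or B cell receptor is built from heavy and light chains. Each chain joins a variable (V) segment, which is picked by DNA rearrangement and differs between B cell clones, to a constant region that sets the class. Ighm encodes the constant region of IgM, Ighg1 that of IgG1, and Igkc that of the kappa light chain, while Igkv6-15 is a kappa V segment. Cd79a and Cd79b encode the signalling partners of the B cell receptor, Ms4a1 encodes the B cell surface protein CD20, and Jchain encodes the joining chain that links IgM and IgA units. Plasma cells, which descend from B cells, make large amounts of heavy chain, light chain and J chain RNA and little Ms4a1. B cells are scarce in the healthy brain tissue itself and are found at its borders and in blood.

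The libraries held between 27741882 and 35851170 estimated counts each. Levels are CPM, that is counts scaled to one common library size within each cell type, and ± marks the SD over the 2 libraries of a group for levels and the standard error for log2 fold changes. The knockout was checked first. Rack1 averaged 41.2 ± 1.12 CPM in CKO and 96.6 ± 2.05 CPM in WT microglia, a log2 fold change of -1.23 ± 0.06 (edgeR, adjusted p = 2.73e-15), and 47.5 ± 0.423 CPM in AD CKO and 114 ± 1.33 CPM in AD WT microglia. In astrocytes Rack1 was higher in CKO than in WT (log2 fold change 0.74 ± 0.06, edgeR, adjusted p = 3.26e-10). It was lower in AD CKO than in AD WT astrocytes (-0.47 ± 0.06, adjusted p = 9.03e-07). The 10 microglial markers summed to between 31471 and 53725 CPM in the microglia libraries. The astrocyte libraries were mixed, with 10 astrocyte markers at 10098 to 23143 CPM and 8 oligodendrocyte markers at 6469 to 18468 CPM. The gene list fits its name only in part, since Pax5 and Blk, other genes that define B cells, were close to the detection limit. Pax5, the factor that fixes B cell identity, had at most 9 counts in any library and none in 7 of the 8 astrocyte libraries. In bulk RNA, more cells of a type and more RNA per cell cannot be told apart.

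In microglia, Ighm stood lower with the knockout, and per kilobase of exon it had the highest level of the 8 genes, at 248 to 381 CPM, with Igkc next at 18.9 to 34.7 CPM. It had 486 and 468 CPM in the AD CKO libraries, 632 and 630 CPM in AD WT, 499 and 487 CPM in CKO, and 692 and 719 CPM in WT. The groups did not overlap, and the gap between the CKO and AD CKO libraries was the smallest. The log2 fold change was -0.52 ± 0.04 for CKO against WT, -0.40 ± 0.04 for AD CKO against AD WT and -0.16 ± 0.04 for AD WT against WT. Ighm lies on chromosome 12 (113418558 to 113422730, minus strand, mm10) and is an immunoglobulin constant region gene.

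Cd79b (chromosome 11, 106311341 to 106314762, minus strand) followed the same order in microglia. It had 11.7 and 13.8 CPM in AD CKO, 17.5 and 16 CPM in AD WT, 14.3 and 12 CPM in CKO, and 24.8 and 24.3 CPM in WT libraries. The WT libraries were above all others, and the AD CKO and CKO libraries overlapped. The log2 fold change was -0.90 ± 0.12 for CKO against WT and -0.39 ± 0.12 for AD CKO against AD WT. Its partner Cd79a (chromosome 7, 24897381 to 24902197, plus strand) was far lower, between 0.226 and 0.791 CPM, with all neighbouring groups overlapping. Ms4a1 (chromosome 19, 11249675 to 11266241, minus strand) had 2 to 10 counts per microglia library and did not pass the filter on low counts. Per kilobase of exon, Cd79b stood at 8.16 to 17.3 CPM and Cd79a at 0.155 to 0.543 CPM in microglia, although their proteins pair in the B cell receptor.

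Igkc and Jchain went the other way in microglia and were higher with the knockout. Igkc (chromosome 6, 70726435 to 70726966, plus strand) had 17.5 and 18.4 CPM in AD CKO, 10.5 and 13 CPM in AD WT, 18.2 and 16.4 CPM in CKO, and 10.7 and 10.0 CPM in WT libraries. All 4 knockout libraries were above all 4 libraries with Rack1 intact. The log2 fold change was 0.74 ± 0.13 for CKO against WT and 0.62 ± 0.13 for AD CKO against AD WT. Jchain (chromosome 5, 88519809 to 88527891, minus strand) had 12.4 and 13.2 CPM in AD CKO, 6.95 and 6.60 CPM in AD WT, 14.2 and 14.1 CPM in CKO, and 6.64 and 5.84 CPM in WT libraries. Again the 4 knockout libraries stood above the other 4. Its log2 fold change was 1.18 ± 0.14 for CKO against WT and 0.91 ± 0.14 for AD CKO against AD WT.

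Counting all 8 genes in microglia, 3 were higher and 2 lower without overlap in CKO against WT, where 34.8% and 29.4% of all tested genes were. The counts were 2 higher and 4 lower in AD CKO against AD WT (33.3% and 32.2% of all tested genes), 2 and 2 in AD WT against WT (27.2% and 29.7%), and 0 and 3 in AD CKO against CKO (26.4% and 26.3%). Nothing is read from these counts, because the genes were chosen on these values. Marker sums of other cell types differed between the microglia groups too. The 9 markers of border macrophages and monocytes summed to 426 to 438 CPM in AD CKO, 210 to 211 CPM in AD WT, 554 to 556 CPM in CKO and 240 to 246 CPM in WT, so they were higher in all 4 knockout libraries, as Igkc and Jchain were. The 9 neutrophil markers summed to 265 to 283 CPM in AD CKO, 427 to 430 CPM in AD WT, 605 CPM in both CKO libraries and 222 to 240 CPM in WT. The 17 T and NK cell markers summed to 13.7 to 14.8 CPM in AD CKO, 17.4 to 18.3 CPM in AD WT, 14.5 to 17.4 CPM in CKO and 8.42 to 8.73 CPM in WT. These last 2 sums were higher in CKO than in WT and lower in AD CKO than in AD WT. The 8 oligodendrocyte markers did likewise, with 2254 to 2307 CPM in AD CKO, 3732 to 3736 CPM in AD WT, 8200 to 8598 CPM in CKO and 3130 to 3269 CPM in WT. The sum of the microglial markers was 31471 to 32352 CPM in CKO and 51476 to 53725 CPM in WT. Their part in the results on microglia was not tested.

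**Figure D1:**
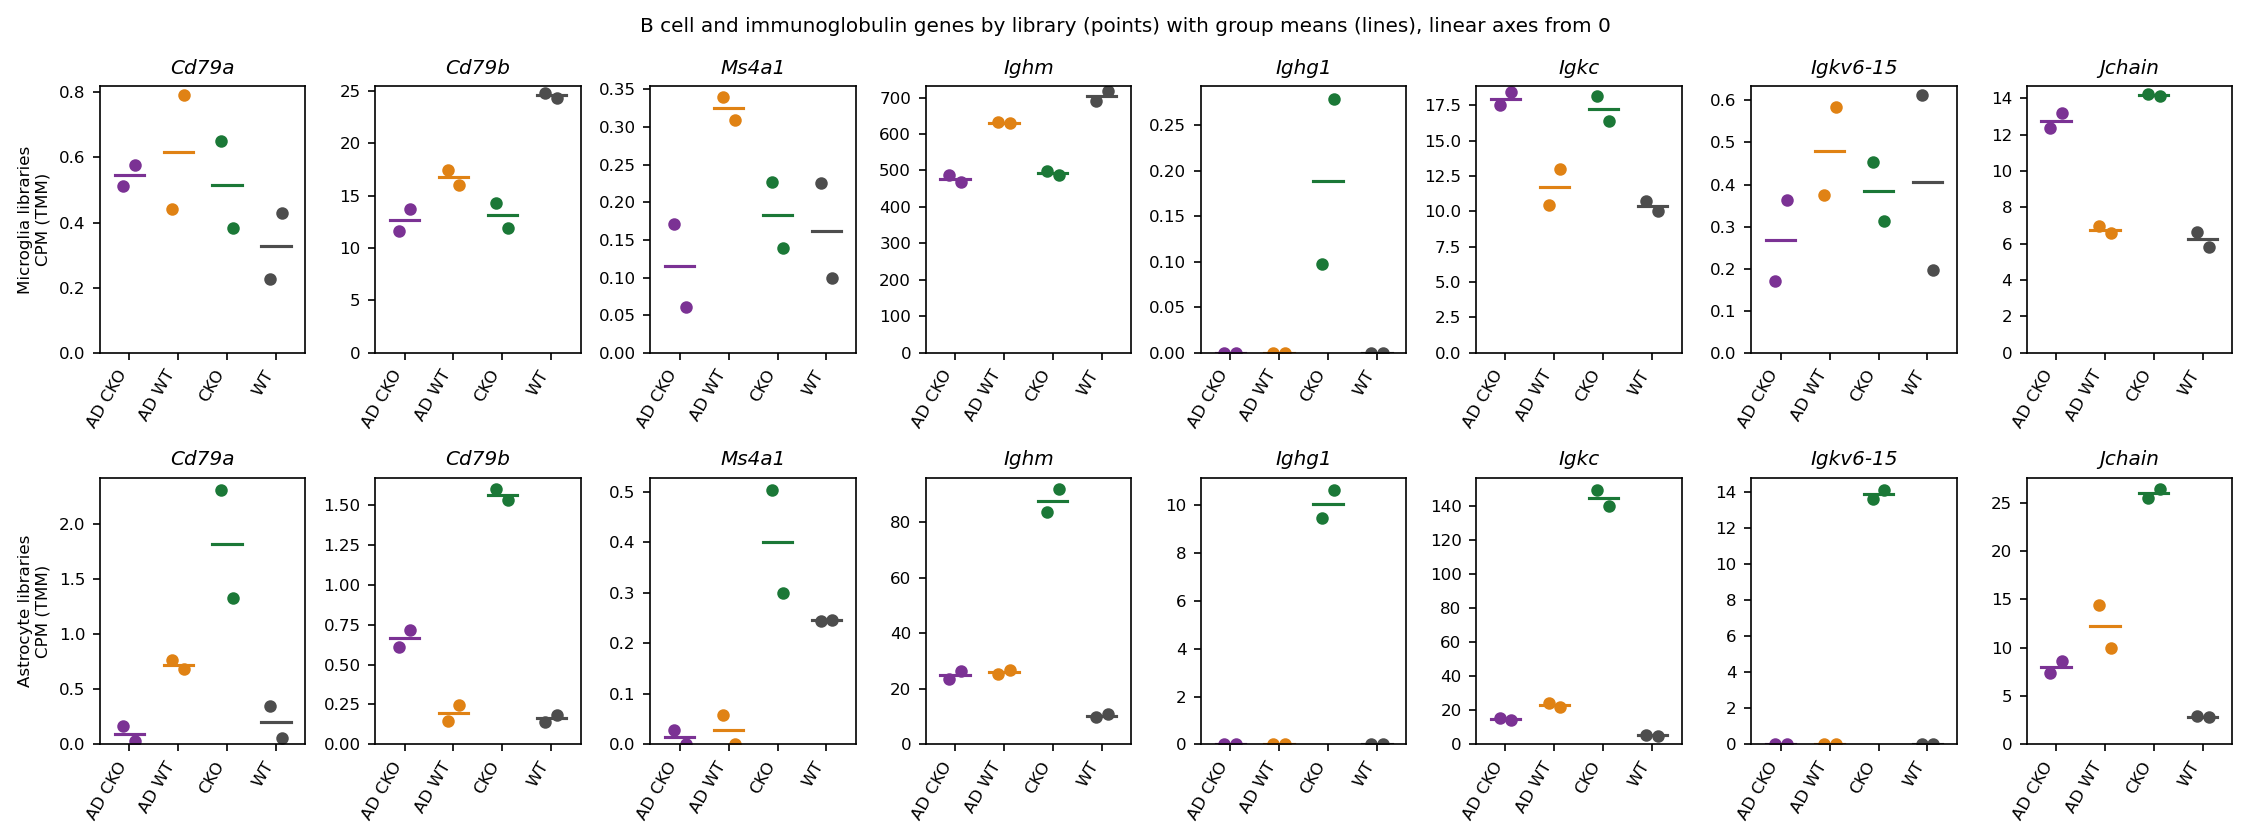
Level of each gene in every microglia library (upper row) and astrocyte library (lower row) in CPM on linear axes that start at 0 and differ between panels, with points for libraries and lines for the means of 2. In microglia Ighm and Cd79b are highest in WT and Igkc and Jchain are higher in the knockout groups, while in astrocytes every gene is highest in CKO.

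In astrocytes all 8 genes were higher in CKO than in WT, and all 8 were lower in AD CKO than in CKO, without overlap. Of all tested genes, 40.8% were higher and 40.2% lower in CKO than in WT in the same sense, and 40.4% were higher and 39.5% lower in AD CKO than in CKO. In AD WT against WT 4 of the 8 were higher and 1 was lower (37.3% and 31.9% of all tested genes), and in AD CKO against AD WT 1 was higher and 3 were lower (36.2% and 39.7%). The choice of genes used these values, so nothing is read from the counts. All 8 genes passed the filter on low counts here.

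Per kilobase, Igkc reached the highest level of the 8 genes in astrocytes, 281 CPM against at most 48.8 CPM for Ighm. Igkc had 15.4 and 14.1 CPM in AD CKO, 24.2 and 21.9 CPM in AD WT, 149 and 140 CPM in CKO, and 5.67 and 4.82 CPM in WT libraries. No groups overlapped, and the order was CKO, AD WT, AD CKO and WT. The log2 fold change was 4.79 ± 0.09 for CKO against WT, 2.14 ± 0.10 for AD WT against WT, -0.64 ± 0.08 for AD CKO against AD WT and -3.29 ± 0.08 for AD CKO against CKO. Those comparisons share libraries and are not independent of each other.

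Ighm had 23.6 and 26.4 CPM in AD CKO, 25.5 and 26.9 CPM in AD WT, 83.6 and 92.0 CPM in CKO, and 9.71 and 10.9 CPM in WT astrocytes. The AD CKO and AD WT libraries overlapped, both were above WT, and CKO was above all. The log2 fold change was 3.09 ± 0.09 for CKO against WT and 1.34 ± 0.09 for AD WT against WT. Jchain had 7.36 and 8.63 CPM in AD CKO, 14.4 and 10.0 CPM in AD WT, 25.5 and 26.4 CPM in CKO, and 2.92 and 2.84 CPM in WT astrocytes. It kept the order of Igkc, with a log2 fold change of 3.17 ± 0.16 for CKO against WT and -0.61 ± 0.14 for AD CKO against AD WT.

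The receptor partners were scarce in astrocytes. Cd79a had 0.167 and 0.0266 CPM in AD CKO, 0.762 and 0.680 CPM in AD WT, 2.31 and 1.33 CPM in CKO, and 0.348 and 0.0618 CPM in WT libraries. Cd79b had 0.613 and 0.719 CPM in AD CKO, 0.147 and 0.247 CPM in AD WT, 1.60 and 1.53 CPM in CKO, and 0.139 and 0.186 CPM in WT libraries. Both were highest in CKO, but Cd79a was second in AD WT and Cd79b second in AD CKO. In AD CKO against AD WT they differed in sign, with log2 fold changes of -2.87 ± 0.71 for Cd79a, which rests on 7 counts in AD CKO, and 1.75 ± 0.54 for Cd79b. Ms4a1 had at most 2 counts in any AD CKO or AD WT library, 17 and 9 counts in CKO, and 7 and 8 counts in WT.

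Ighg1 and Igkv6-15 were close to exclusive to the CKO libraries among astrocytes. Ighg1 (chromosome 12, 113325240 to 113330523, minus strand) had 0 and 1 count in AD CKO astrocytes, none in AD WT, 320 and 319 in CKO, and none in WT. Taking 3 counts over both WT libraries as the limit that a count of 0 allows, Ighg1 was at least 204-fold higher in CKO than in WT astrocytes. In microglia it had 3 and 8 counts in CKO and none in the other 6 libraries. Igkv6-15 (chromosome 6, 70406469 to 70406992, minus strand) had 1 and 0 counts in AD CKO astrocytes, none in AD WT, 460 and 423 in CKO, and none in WT, and was at least 282-fold higher in CKO than in WT on the same limit. In microglia it had 5 to 19 counts in every library, at 0.171 to 0.612 CPM, and groups next to each other in their order overlapped.

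The V exon of Igkv6-15 is shown beside that of Igkv6-17, the kappa segment with the most counts in microglia, because they led the kappa counts of CKO astrocytes and of most microglia libraries, and the reads of such close relatives can be hard to assign. Both are given 5′ to 3′ on the coding strand from the GENCODE M21 transcripts (GRCm38), at chr6:70406469-70406766 (minus strand) and chr6:70371696-70371993 (plus strand). Capitals mark the 27 of 298 bases at which the pair differ.
Igkv6-15: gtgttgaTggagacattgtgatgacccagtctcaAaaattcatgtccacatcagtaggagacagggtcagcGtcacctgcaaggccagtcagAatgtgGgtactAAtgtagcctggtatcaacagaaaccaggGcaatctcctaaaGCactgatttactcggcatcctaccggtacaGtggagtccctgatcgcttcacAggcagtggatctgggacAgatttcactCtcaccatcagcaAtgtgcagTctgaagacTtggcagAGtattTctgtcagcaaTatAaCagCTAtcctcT
Igkv6-17: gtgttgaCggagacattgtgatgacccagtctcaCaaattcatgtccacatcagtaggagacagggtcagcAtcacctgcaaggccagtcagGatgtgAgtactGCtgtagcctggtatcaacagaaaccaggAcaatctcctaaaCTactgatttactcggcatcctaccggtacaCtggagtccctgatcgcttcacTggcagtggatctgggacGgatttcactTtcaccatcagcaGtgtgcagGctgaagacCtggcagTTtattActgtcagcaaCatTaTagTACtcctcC
Among 99 other kappa segments with a V exon of this form, Igkv6-13 was the closest to Igkv6-15, with 95.3% of bases identical, followed by Igkv6-23 with 94.6%, and Igkv6-17 was the fourth with 90.9%. Counts of these segments are estimates that can share reads, and the way reads were divided is not given in the sources used here. In AD CKO astrocytes Igkv6-23 had 30 and 32 counts and Igkv6-15 had 1 and 0. In CKO astrocytes Igkv6-13 had 3.4 and 3.25 counts, Igkv6-23 had 78.6 and 66.8, and Igkv6-15 had 460 and 423. Igkv6-23 was thus highest in CKO, as Igkv6-15 was, and had no counts in AD WT and WT astrocytes. Igkv6-13 had 16 and 21 counts in AD WT astrocytes and none in AD CKO and WT. Whether these segments shared reads was not tested.

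The balance between chains differed between the cell types within every library. Per kilobase of exon, the Igkc level was 0.0495 to 0.140 times that of Ighm in the 8 microglia libraries and 1.57 to 6.33 times that of Ighm in the 8 astrocyte libraries. In microglia the ratio was 0.128 and 0.140 in AD CKO, 0.0586 and 0.0729 in AD WT, 0.129 and 0.119 in CKO, and 0.0548 and 0.0495 in WT, so the knockout libraries stood above the others. In astrocytes it was 2.32 and 1.89 in AD CKO, 3.37 and 2.88 in AD WT, 6.33 and 5.39 in CKO, and 2.07 and 1.57 in WT, with CKO above the rest. These ratios compare 2 genes inside a library and do not depend on the scaling between cell types.

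The V segments gave a second measure within each library. It uses CPM not scaled to exon length, so its size is not a ratio of transcript numbers. A complete heavy chain transcript carries a V segment, so the summed level of all heavy V segments can be set beside Ighm. That sum was 0.540% to 1.58% of the Ighm level in microglia and 8.57% to 16.1% in astrocytes. In microglia the share was 1.28% and 1.30% in AD CKO, 0.668% and 0.715% in AD WT, 1.38% and 1.58% in CKO, and 0.540% and 0.597% in WT. All 4 knockout libraries were again above the other 4. For the kappa chain, the summed V segments were 1.09 to 1.79 times the Igkc level in microglia and 0.322 to 0.397 times that level in astrocytes, where the value hardly moved although Igkc itself differed 4.79 on the log2 scale between CKO and WT. Heavy V segments also join other constant regions, and all these ratios were chosen after the values were seen.

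**Figure D2:**
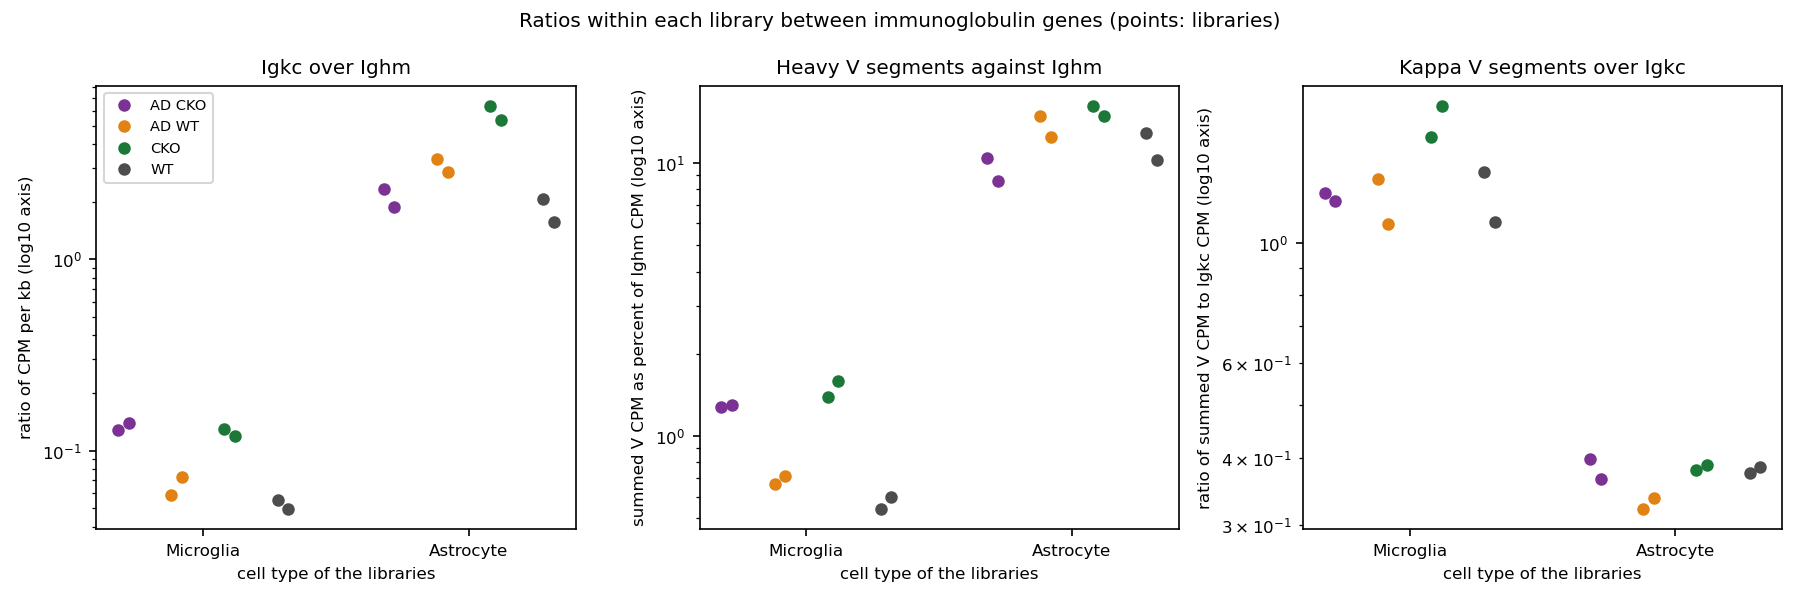
Ratios between immunoglobulin genes within each library, with a log10 axis in each panel, for Igkc over Ighm per kilobase, summed heavy V segments as a percentage of Ighm, and summed kappa V segments over Igkc. The V segment ratios use CPM not scaled to exon length. Points are libraries, coloured by group. The 2 cell types do not overlap in any panel.

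The other constant regions show which classes had constant region RNA, with or without a V segment joined to it. In CKO astrocytes Ighg1, Ighg2b, Ighg2c and Ighg3 all had counts. Ighg2c, the IgG2c constant region, had 12 and 13 counts in AD CKO, 98 and 80 in AD WT, 656 and 628 in CKO, and 1 and 0 in WT astrocytes. It rose in CKO against WT (edgeR, adjusted p = 1.63e-16) and fell in AD CKO against CKO by a log2 fold change of -5.87 ± 0.22 (adjusted p = 2.03e-15). Ighg2b had 11 and 6 counts in AD CKO, 267 and 180 in AD WT, 299 and 278 in CKO and none in WT, and rose in both CKO (adjusted p = 2.37e-13) and AD WT (adjusted p = 1.11e-11) against WT. Ighg1 and Ighg3 had no counts in AD WT, while Ighg2b and Ighg2c had counts in both AD WT and CKO. Ighg3 had 3 and 0 counts in AD CKO, none in AD WT, 57 and 46 in CKO, and none in WT astrocytes.

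Igha, the constant region of IgA, had another order. It averaged 15.4 ± 1.27 CPM in AD CKO, 14.8 ± 0.368 CPM in AD WT, 7.51 ± 0.0229 CPM in CKO and 3.03 ± 0.0906 CPM in WT astrocytes. It rose in AD WT against WT with a log2 fold change of 2.29 ± 0.13 (adjusted p = 1.07e-11), and both AD groups stood above CKO. Igha was thus the only class gene among Ighm, Igha, Ighg1, Ighg2b, Ighg2c and Ighg3 whose mean in astrocytes was highest in AD CKO, although the AD CKO and AD WT libraries overlapped.

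Ighd and Igha went opposite ways in microglia. Ighd, the IgD constant region next to Ighm, averaged 14.7 ± 1.14 CPM in AD CKO, 21.6 ± 1.70 CPM in AD WT, 17.4 ± 1.32 CPM in CKO and 32.4 ± 1.72 CPM in WT. It fell in CKO against WT by 0.89 ± 0.10 on the log2 scale (adjusted p = 7.91e-08) and in AD CKO against AD WT by 0.56 ± 0.11 (adjusted p = 0.000186), as Ighm was lower there. Igha averaged 36.8 ± 1.46 CPM in AD CKO, 20.1 ± 1.25 CPM in AD WT, 38.9 ± 1.17 CPM in CKO and 22.6 ± 0.0673 CPM in WT. It rose in CKO against WT by 0.78 ± 0.09 (adjusted p = 4.26e-08) and in AD CKO against AD WT by 0.87 ± 0.09 (adjusted p = 1.37e-08), in the knockout groups in which Igkc and Jchain were higher.

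Ighg2c and the lambda segment Iglv1 were highest in AD CKO microglia. Ighg2c averaged 7.02 ± 0.676 CPM in AD CKO, 1.73 ± 0.180 CPM in AD WT, 2.10 ± 0.107 CPM in CKO and 0.259 ± 0.180 CPM in WT. It rose in AD CKO both against AD WT (log2 fold change 2.02 ± 0.28, adjusted p = 2.37e-06) and against CKO (1.74 ± 0.28, adjusted p = 3.96e-05). Iglv1 averaged 6.10 ± 0.402 CPM in AD CKO, 2.34 ± 0.0391 CPM in AD WT, 1.24 ± 0.0159 CPM in CKO and 0.0648 ± 0.0450 CPM in WT microglia. It rose by 1.38 ± 0.27 in AD CKO against AD WT (adjusted p = 0.000227) and by 2.29 ± 0.29 in AD CKO against CKO (adjusted p = 1.01e-06). The lambda constant genes stayed low, with Iglc2 at 7 to 26 counts, Iglc1 and Iglc3 at no more than 9 counts and Iglc4 at 0 in every microglia library. Ighe, the IgE constant region, had 1 count in all 16 libraries together.

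**Figure D3:**
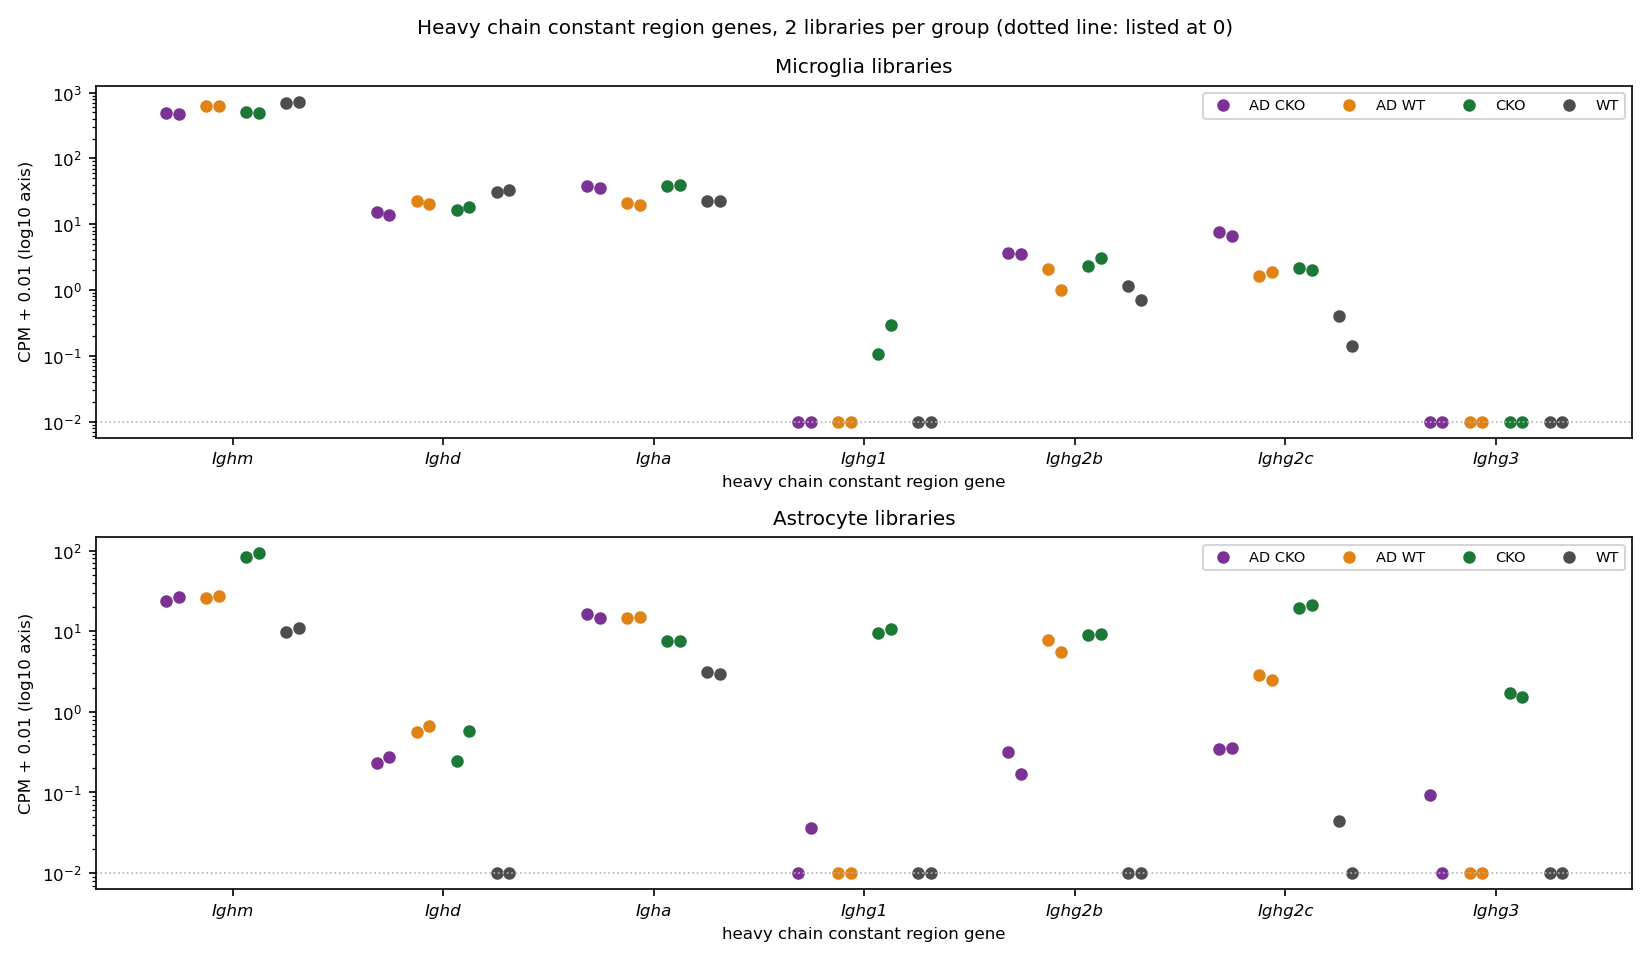
Heavy chain constant region genes in every library, as CPM + 0.01 on a log10 axis, with points for libraries coloured by group and the dotted line for genes listed at 0. Ighg1 and Ighg3 exceed 1 CPM in CKO astrocytes alone, and among astrocytes Igha is highest in AD CKO and AD WT.

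The V segments in use differed between the astrocyte groups. Igkv6-15 took 0.455% of 220 kappa V counts in AD CKO replicate 1 (95% exact Clopper-Pearson interval 0.0115% to 2.51%) and none of 193 in replicate 2 (upper limit 1.89%). It took 24.1% (22.2% to 26.1%) and 25.9% (23.8% to 28.1%) of all kappa V counts in the 2 CKO libraries. In the WT libraries it took none of 61 and 60 kappa V counts, with upper limits of the same interval at 5.87% and 5.96%. Intervals and limits cover counting error only, since reads amplified by PCR are not independent molecules.

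Other kappa segments led the remaining astrocyte groups. Igkv12-46 led both AD CKO libraries with 31.4% and 32.6% of kappa V counts. Igkv17-127 led AD WT replicate 1 with 18.1% and Igkv15-103 led replicate 2 with 21.8%, and in WT Igkv3-10 led replicate 1 with 49.2% and Igkv4-59 replicate 2 with 36.7%, of only 61 and 60 counts. Igkv6-15, Igkv1-117, Igkv19-93, Igkv4-59 and Igkv14-126 had the most kappa V counts over the 8 astrocyte libraries. Igkv1-117 had none in AD CKO, 28 and 30 counts in AD WT, 312 and 238 in CKO, and none in WT. Igkv19-93 had 2 and 0 counts in AD CKO, none in AD WT, 200 and 160 in CKO, and none in WT. Among heavy segments Ighv1-19 led CKO with 82 and 90 counts and was also counted in AD WT (15 and 16) and WT (9 and 4). Ighv4-1 had 21 and 18 counts in AD CKO, 22 and 22 in AD WT, and none in CKO and WT.

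The 2 libraries of a group resembled each other in their segments. Each library of a pair was taken in turn. Of its V segments with at least 3 counts, a median of 84.2% (66.7% to 100%) also reached 3 counts in the other library of the same astrocyte group. Over 24 pairs of astrocyte libraries from different groups the median was 22.9% (5.88% to 85.7%). In microglia the median was 74.8% (64.4% to 85.4%) within groups and 55.0% (37.3% to 71.1%) over 24 pairs between groups. Segments with at least 10 counts in both libraries of a group and none in any other astrocyte library numbered 2 of 9 in AD CKO, 3 of 12 in AD WT, 10 of 29 in CKO and 1 of 3 in WT. Igkv6-15 itself was not among the 10, because of its single count in AD CKO. In microglia there was 1 such segment, Ighv8-12, in AD CKO. The chi-square per V segment between the 2 libraries of a group was 1.31 to 1.98 in astrocytes and 2.07 to 3.16 in microglia. Over all genes it was 3.76 to 6.42 per gene in astrocytes and 3.63 to 6.16 in microglia. This value grows with the count where replicates differ beyond counting noise, so it cannot say whether V segments agree better than other genes. The count limits were set after the values were seen, and these shares were not tested. Shared and group-specific segments also depend on depth, since kappa V counts were 1910 and 1632 in CKO and 61 and 60 in WT astrocytes. A segment with few counts in CKO could go uncounted in WT.

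Microglia were led by Igkv6-17 in 7 of the 8 libraries, with 33.0% to 51.8% of kappa V counts, and by Igkv3-2 in WT replicate 1. Igkv6-17 averaged 8.45 ± 0.289 CPM in AD CKO, 6.07 ± 0.276 CPM in AD WT, 13.6 ± 2.24 CPM in CKO and 3.48 ± 0.222 CPM in WT microglia. It rose in CKO against WT (log2 fold change 1.97 ± 0.17, adjusted p = 3.44e-10) and in AD WT against WT (0.80 ± 0.18, adjusted p = 0.00148). In astrocytes the same segment had 28.4 and 45.0 counts in CKO and none in any other library. Of the V segments with at least 3 counts in both libraries of a group, microglia and astrocytes of the same genotype shared 7 in AD CKO (17.1% of the 41 in microglia and 41.2% of the 17 in astrocytes), 5 in AD WT (19.2% of 26 and 26.3% of 19), 23 in CKO (53.5% of 43 and 62.2% of 37) and 2 in WT (6.90% of 29 and 33.3% of 6). Over the 12 pairs of different genotypes the shared segments were 6.98% to 48.3% of those in microglia and 17.6% to 83.3% of those in astrocytes, ranges that overlap those of the same genotype.

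**Figure D4:**
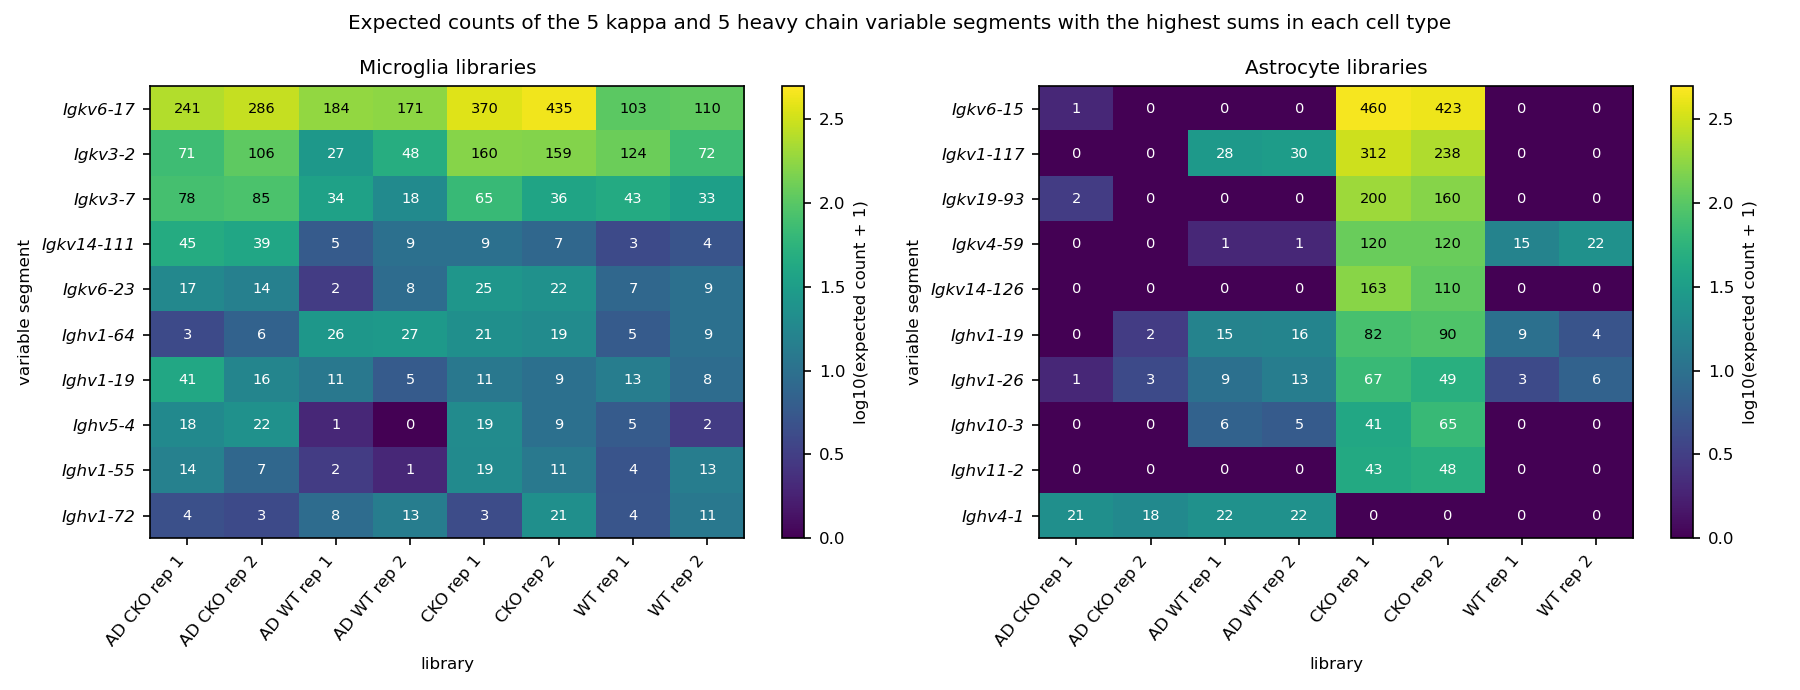
Estimated counts, printed in each cell and coloured as log10(count + 1), of the 5 kappa and 5 heavy V segments with the highest sums in microglia (left) and astrocytes (right), with 1 column per library. In astrocytes Igkv6-15 has 460 and 423 counts in CKO and at most 1 elsewhere, whereas Igkv6-17 has counts in all microglia libraries.

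Over all immunoglobulin genes other than the 8, 389 features, 48 could be tested in astrocytes and 31 in microglia. In astrocytes 37 rose and 1 fell in CKO against WT, where 31.6% of all tested genes rose and 32.4% fell (64.0% in all). In AD CKO against CKO 7 rose and 33 fell (31.4% and 28.4% of all tested genes, 59.8% in all). For 20 of the 48, no library outside CKO reached 10 counts, so these entered the test through the CKO libraries and had to differ there. Over all 48 genes, those 20 included, the median log2 fold change in CKO against WT was 5.89 as fitted and 4.0 with genes at 0 placed at the limit of 3 counts (39 genes), against 0.01 for all genes. Genes that entered through CKO also lean towards a fall in AD CKO against CKO. Because of those 20, nothing is read from this count and median, or from the count in AD CKO against CKO. In AD WT against WT 15 rose and 4 fell (20% and 18.0% of all tested genes, 38.0% in all), and in AD CKO against AD WT 6 rose and 12 fell (25.1% and 27%, 52.1% in all). For 4 of the 48, no library outside AD WT reached 10 counts, for 3 none outside AD CKO did, and for 2 none outside WT. These genes lean towards a difference in those groups, so nothing is read from these counts. The interaction, the effect of the knockout in the AD model minus that without it, was positive for 0 and negative for 17 of the 48 (29.5% and 28.3% of all tested genes, 57.8% in all). The same 20 genes lean towards a negative interaction, so nothing is read from this count either.

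The microglia had 11 immunoglobulin genes that rose and 3 that fell in CKO against WT (17.7% and 15.9% of all tested genes, 33.6% in all). In AD CKO against AD WT 13 rose and 2 fell (17.0% and 15%, 32.0% in all), and their median log2 fold change was 1.53 as fitted and 1.30 with genes at 0 placed at the limit (30 genes). In AD WT against WT 6 rose and 5 fell (10.7% and 8.62%, 19.3% in all), and in AD CKO against CKO 6 rose and 4 fell (7.73% and 6.92%, 14.7% in all). The interaction was positive for 1 and negative for 5 of the 31 (5.53% and 7.19%, 12.7% in all). For 3 of the 31, no library outside AD CKO reached 10 counts, for 1 none outside CKO did, and for 2 none outside WT. These genes entered the test through the group in which they are high and lean towards a difference there. Nothing is therefore read from these microglia counts and the median.

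Genes of B cell surface and signalling changed in both cell types, but the list holds genes that microglia also use. In astrocytes 16 of 21 tested genes rose and 1 fell in CKO against WT (31.6% and 32.4% of all tested genes). Cd37, a tetraspanin of leukocytes, averaged 20.1 ± 3.19 CPM in CKO and 2.59 ± 0.470 CPM in WT astrocytes (log2 fold change 2.96 ± 0.16, adjusted p = 6.03e-13), and the kinase gene Lyn rose by 1.16 ± 0.07 (adjusted p = 3.00e-12). Among the 18 tested in microglia, 6 rose and 7 fell in CKO against WT (17.7% and 15.9% of all tested genes). Cd40, the receptor for T cell help, averaged 36.6 ± 1.98 CPM in CKO and 2.73 ± 0.670 CPM in WT (3.74 ± 0.14, adjusted p = 5.60e-18). Bank1 and Blnk, which encode adaptors of B cell receptor signalling, fell by 1.28 ± 0.08 (adjusted p = 1.78e-13) and 0.59 ± 0.05 (adjusted p = 4.11e-11), in the groups in which Ighm and Cd79b were lower. Cd22, an inhibitory receptor of B cells and microglia, rose by 1.02 ± 0.09 (adjusted p = 1.47e-10). Blk had no counts in any astrocyte library and at most 3 in microglia.

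Transcription factors of the lineage moved both ways. Of 10 tested in astrocytes, 5 rose and 3 fell in CKO against WT (31.6% and 32.4% of all tested genes). Irf8, which B cells share with microglia, averaged 16 ± 0.213 CPM in CKO and 3.29 ± 0.513 CPM in WT (2.27 ± 0.13, adjusted p = 5.56e-13), and Bcl6, the factor of germinal centre B cells, fell by 1.29 ± 0.07 (adjusted p = 8.75e-13). Pou2af1, a coactivator of immunoglobulin genes, had 22 and 21 counts in AD CKO, 6 and 2 in AD WT, 56 and 66 in CKO, and 15 and 4 in WT astrocytes. It fell in AD CKO against CKO by 1.71 ± 0.48 (adjusted p = 0.00393). Of 11 tested in microglia, 2 rose and 2 fell in CKO against WT (17.7% and 15.9% of all tested genes). Among them was Bach2, a repressor that restrains plasma cell formation, which fell by 0.52 ± 0.09 (adjusted p = 2.93e-05). Of the precursor genes 3 of 4 rose and 1 fell in CKO against WT astrocytes, and 1 of 3 rose and 1 fell in microglia, beside the same shares of all tested genes. They included Cd93, which endothelial cells and microglia also express and which rose in astrocytes by 1.55 ± 0.09 (adjusted p = 6.55e-13), and Vpreb1, part of the surrogate light chain of B cell precursors. Vpreb1 had 29 and 20 counts in AD CKO, 26 and 12 in AD WT, 44 and 42 in CKO, and 18 and 18 in WT astrocytes and rose in CKO against WT by 1.19 ± 0.44 (adjusted p = 0.0227).

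Plasma cell genes also split. Of 16 tested in astrocytes, 8 rose and 1 fell in CKO against WT. Of all tested genes, 31.6% rose and 32.4% fell (64.0% in all). The list did not stand above all genes in its number of calls, but nearly all of its calls were rises. Among those that rose was Sdc1, the plasma cell marker CD138 that epithelia also make, at 7.14 ± 0.629 CPM in CKO and 2.86 ± 0.0160 CPM in WT (1.32 ± 0.17, adjusted p = 7.39e-07). Ssr4, a part of the protein translocation machinery, rose by 0.66 ± 0.06 (adjusted p = 3.66e-09), and Txndc5 fell by 1.01 ± 0.05 (adjusted p = 6.44e-14). The plasma cell genes Mzb1 and Tnfrsf17 had few counts in CKO astrocytes (6.69 and 22.4, and 13 and 11) and fewer in WT astrocytes (1 and 5, and 4 and 4). Among the 16 tested in microglia, 3 rose and 6 fell in CKO against WT (17.7% and 15.9% of all tested genes). Xbp1, the secretory programme factor, averaged 670 ± 21.4 CPM in CKO and 322 ± 4.43 CPM in WT (1.06 ± 0.04, adjusted p = 8.77e-18). Tnfrsf17, the receptor BCMA of plasma cells, went the other way and averaged 4.85 ± 0.200 CPM in CKO and 22.8 ± 1.37 CPM in WT (-2.24 ± 0.14, adjusted p = 2.73e-13).

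Of 12 tested signals that attract or sustain B cells, 10 rose and none fell in CKO against WT astrocytes, where 31.6% of all tested genes rose and 32.4% fell. In microglia 5 of 12 rose, none fell and 7 did not pass the test, where 17.7% of all tested genes rose and 15.9% fell. The counts were 5 up and 3 down in AD CKO against AD WT astrocytes (25.1% and 27% of all tested genes, 52.1% in all). Cxcl13, the chemokine that draws B cells into follicles, averaged 81.8 ± 5.54 CPM in CKO and 0.344 ± 0.388 CPM in WT astrocytes (7.81 ± 0.26, adjusted p = 1.20e-09), and 9.27 ± 0.817 CPM in AD CKO and 0.120 ± 0.0381 CPM in AD WT astrocytes (6.22 ± 0.40, adjusted p = 5.03e-07). In microglia Cxcl13 had 349 and 351 CPM in the AD CKO libraries and 1.33 and 1.24 CPM in AD WT. It had 553 and 553 CPM in the CKO microglia libraries and 0.677 and 0.925 CPM in WT. Ccl19, a chemokine of lymphoid tissue, averaged 1.77 ± 0.0188 CPM in AD CKO, 2.07 ± 0.312 CPM in AD WT, 15.1 ± 0.742 CPM in CKO and 1.58 ± 0.711 CPM in WT astrocytes. It rose by 3.27 ± 0.22 in CKO against WT (adjusted p = 1.12e-11) and, like the 8 genes, was lower in AD CKO than in CKO (-3.09 ± 0.21, adjusted p = 2.81e-11). Tnfsf13b, which encodes the B cell survival factor BAFF, rose by 0.48 ± 0.08 in CKO against WT microglia (adjusted p = 1.96e-05).

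Of 7 receptors that bind antibodies, 1 rose and 4 fell in CKO against WT microglia (17.7% and 15.9% of all tested genes). Fcgr2b, the inhibitory IgG receptor, averaged 157 ± 0.0383 CPM in CKO and 404 ± 1.26 CPM in WT (-1.36 ± 0.04, adjusted p = 9.01e-20). In astrocytes 6 of 7 rose and none fell (31.6% and 32.4% of all tested genes). Among them was Fcer1g, the shared signalling chain, which rose by 3.64 ± 0.10 (adjusted p = 3.39e-17). Over all these lists together, without the 8 genes, 85 of 118 tested genes rose and 7 fell in CKO against WT astrocytes (31.6% and 32.4% of all tested genes). The 118 include the 20 immunoglobulin genes that entered the test through the CKO libraries, and 48 genes changed where a mean of 1 CPM was required. Of all tested genes, 7.73% rose and 6.92% fell in AD CKO against CKO microglia. In AD CKO against CKO microglia 21 of 98 rose and 11 fell, a total of 32, which was 17 without CKO replicate 1, 19 without CKO replicate 2, 20 without AD CKO replicate 1 and 20 with DESeq2. The 98 include the 3 immunoglobulin genes that entered the test through the AD CKO libraries.

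Markers of several other cell types were higher in the same CKO astrocyte libraries as the 8 genes. The 10 microglial markers summed to 1854 to 1887 CPM in CKO and 540 to 543 CPM in WT astrocytes, the 17 T and NK cell markers to 24.1 to 25.2 CPM in CKO and 9.03 to 9.46 CPM in WT, and the 9 neutrophil markers to 127 to 138 CPM in CKO and 52.3 to 54.5 CPM in WT. The 8 endothelial markers summed to 3701 to 3824 CPM in CKO and 1310 to 1341 CPM in WT astrocytes, and the 7 choroid and ependymal markers to 9211 to 10523 CPM in CKO and 4329 to 4645 CPM in WT. In AD CKO and AD WT astrocytes the sums were 1217 to 1227 and 1167 to 1178 CPM for microglial markers, 29.0 to 29.5 and 30.4 to 37.0 CPM for neutrophil markers, and 1957 to 1972 and 1638 to 1698 CPM for endothelial markers. The 10 astrocyte markers were lower, at 10098 to 10291 CPM in CKO and 22826 to 23143 CPM in WT. The 9 markers of border macrophages and monocytes summed to 75.7 to 85.5 CPM in CKO and 22.8 to 22.9 CPM in WT. Of the 17 T and NK cell markers 13 of 15 tested rose and none fell (31.6% and 32.4% of all tested genes). Of the 17, 1 had no counts in CKO and 7 had none in WT. The 7 erythroid markers took another order, with 94.7 to 104 CPM in AD CKO, 417 to 508 CPM in AD WT, 133 to 163 CPM in CKO and 141 to 154 CPM in WT astrocytes. They were highest in AD WT, where Igkc, Ighm and Jchain stood above WT, and close to WT in CKO, where the 8 genes were highest. The part of these cells in the immunoglobulin results was not tested.

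The genes whose levels ran most like each of the 8 over the 8 libraries of a cell type were found by Pearson correlation of log2(CPM + 1), among genes with a mean of at least 1 CPM. With 8 libraries in 4 groups that share their scaling, such values are descriptions. In astrocytes Igkv6-15 was closest to Igkv19-93 (r = 0.999), Gm20186 (0.999) and Cyyr1 (0.998), and Ighg1 to the same 3 genes (0.998 each). Igkc was closest to Cd59a, Cytl1 and Gimap1 (0.999 each), Jchain to Cd74 (0.992), Akap17b (0.991) and Adipor1 (0.991), and Ighm to Maoa, Paqr5 and Hprt (0.995 each). In microglia Ighm was closest to Khdrbs3 (0.999), Slc46a3 (0.997) and Idh2 (0.997), and Cd79b to Cryba4 (0.993), Vsig10l (0.984) and Cep170 (0.982). Jchain was closest to Naip2, Aaas and Samd9l (0.996, 0.996 and 0.995), and Igkc to Cpt1c (0.993), Tk1 (0.990) and Gm20489 (0.988). No immunoglobulin gene was among the 3 closest to any of the 4 genes examined in microglia.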

How the data were processed

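Per the labels' protocols, 10 ng of RNA per library was amplified by SMART-Seq and sequenced from both ends for 150 bases, in 4 groups of 2 libraries per cell type. The authors deposited a table for each cell type with unscaled expected counts, which are estimates and need not be whole. The submitters' processing notes name fastp, HISAT2, StringTie and mm10; the counting step, its strand setting and the annotation release are not given in the sources used here. Without strand, a gene and its antisense partner cannot be told apart, and reads of near-identical immunoglobulin segments may be split. No column was left out.

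After rounding, these counts went into edgeR 4.0.16's robust quasi-likelihood test (R 4.3.3, filterByExpr, TMM, two-sided), with all 8 libraries of a cell type in a fit, which left 17318 genes in microglia and 20116 in astrocytes. P values were adjusted by Benjamini-Hochberg over all tested genes, and genes under 0.05 are said to have risen or fallen. The fit was tested on simulated data. Coordinates and exon lengths come from GENCODE M21. The 8 genes, the lists and the tests were chosen with earlier results of these data known. Besides the 8 genes and Rack1, the text names, by a fixed rule, up to 4 changed genes of smallest p per list and comparison, every constant region gene, the 5 kappa and 5 heavy V segments of highest sum per cell type and the 3 closest genes by correlation. The leading, group-specific and closely related segments, the defining markers and the ratios were chosen after their values were seen. Replicate numbers were not treated as pairs. Replicates differed beyond counting noise, with a chi-square per gene of 3.63 to 6.42.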

Additional observations from a re-analysis of the deposited data

Results flagged for a closer look

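Some of the 8 genes had opposite directions in 2 settings, with every library of the tested groups on one side; these differences were not tested, because the genes were chosen on these values. In astrocytes, AD CKO stood below AD WT while CKO stood above WT, and the log2 fold change of the first comparison minus that of the second was -6.04 for Cd79a, -5.43 for Igkc and -3.78 for Jchain. In CKO against WT, microglia and astrocytes went opposite ways, with a difference (microglia minus astrocytes) of -3.61 for Ighm and -4.14 for Cd79b. In AD WT against WT that difference was -1.5 for Ighm. In AD CKO against AD WT it was -2.14 for Cd79b, 1.26 for Igkc and 1.53 for Jchain.

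For genes outside the 8, the effect of the knockout in the AD model differed from its effect without the model in edgeR's interaction test. Of all tested genes, 57.8% in astrocytes and 12.7% in microglia had such a difference. In astrocytes the interaction on the log2 scale was -3.49 for Ccl19 (adjusted p = 6.79e-09), -2.32 for Cd37 (adjusted p = 6.74e-09), -2.19 for Irf8 (adjusted p = 2.00e-10), -1.21 for Cd93 (adjusted p = 2.70e-08), -2.82 for Fcgr3 (adjusted p = 2.54e-15) and -1.07 for Ssr4 (adjusted p = 6.77e-10). In microglia it was -0.85 for Cxcl12 (adjusted p = 2.20e-06), -1.15 for Cd22 (adjusted p = 3.97e-08), -0.82 for Ebf1 (adjusted p = 0.0149), -1.11 for Cd93 (adjusted p = 3.94e-06), 0.22 for Fcgr3 (adjusted p = 0.00204), -1.49 for Igkv6-17 (adjusted p = 6.17e-05) and 0.43 for Xbp1 (adjusted p = 4.60e-06). Groups of 2 libraries were too small to look for single libraries that stand apart.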

How the results depend on the processing

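Of the values of the 8 genes under the alternatives, 682 stayed within their error, 62 moved and 6 changed sign. Each sign change came with 1 library left out and a log2 fold change whose groups overlap or whose error is larger, and the cause was not tested. In microglia, Igkv6-15 in CKO against WT gave -0.66 to 0.94 (the highest without WT replicate 1), Cd79a in AD CKO against AD WT gave -0.53 to 0.30 (without AD WT replicate 2), Cd79a in AD CKO against CKO gave -0.25 (without CKO replicate 2) to 0.52, and the Igkc interaction gave -0.26 to 0.046 (without AD WT replicate 2). In astrocytes, Cd79b in AD WT against WT gave -0.16 (without AD WT replicate 2) to 0.58, and Ighm in AD CKO against AD WT gave -0.14 to 0.031 (without AD CKO replicate 1).

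The count of changed genes in microglia was 2118 to 3355 for AD WT against WT and 1385 to 1968 for the interaction with 1 library left out. The lowest came without AD WT replicate 2, and without AD WT replicate 1 the counts were 2180 and 1457. Changed B lineage and immunoglobulin genes in AD CKO against CKO microglia numbered 17 to 32 without 1 library and 20 with DESeq2. Requiring a mean of 1 CPM tests fewer genes and gave 48 in CKO against WT, 36 in AD WT against WT and 42 in AD CKO against CKO astrocytes, where 92, 55 and 87 were called otherwise.

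A replicate block gave 92 and 53 changed B lineage genes in CKO against WT astrocytes and microglia and moved no count by over 1.5 times. Libraries of the same number deviated together weakly (r 0.031 to 0.15 in astrocytes, -0.032 to 0.075 in microglia), so the numbers do not pair them. Ms4a1, and V segment shares in WT astrocytes, are limited by depth.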
